A study of Mus musculus with 139 samples.

Results

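The transcripts described here are 10 small nucleolar RNA (snoRNA) host genes, Snhg1, Snhg3, Snhg4, Snhg5, Snhg6, Snhg8, Snhg9, Snhg12, Snhg20 and Gas5. They were chosen by name from the 52885 genes that each expression table lists, and all 10 were found in every table. The choice was made with earlier results of these data known. The cells were ESCs, embryonic stem cells of the mouse, from the AID-FBEXOSC2 line, in which EXOSC2, a core subunit of the nuclear and cytoplasmic RNA exosome, carries an auxin-inducible degron. The study asked how RNA and chromatin differ when EXOSC2 is lost after addition of 0.5 mM of the auxin IAA. RNA was measured in whole cells, in cell fractions and across a sucrose gradient.

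All groups carried the degron, and IAA-treated cells without it were not part of these tables, so a comparison with 0 h cannot tell EXOSC2 loss apart from other effects of IAA. Total RNA depleted of rRNA came from ESCs at 0, 4 and 20 h of IAA, and from iMEFs, fibroblasts made from the same line by 10 days in 1 µM retinoic acid without LIF, at the same times. Nascent RNA, labelled with 1 mM 5-ethynyluridine for 10 min, came from ESCs at 0, 1, 2 and 4 h. Fractions were taken at 4 and 0 h as insoluble chromatin (chrRNP), soluble nucleoplasm (np), cytoplasm (cyto) and whole-cell lysate (wcl). The RNPmesh samples, at 0, 4 and 12 h, were polyadenylated RNA of the pellet that remained when DNase I-treated nuclei had been washed with detergent, urea and high salt. Polyadenylated RNA of whole cells at 0, 4 and 20 h came from RAD1 cells, kept 1 day in 2 µM retinoic acid without LIF, and from RAD0 cells. Each group had 2 libraries of 1 line, and the labels do not say whether these came from separate cultures, so p-values measure only the spread between the libraries, which may be technical. The gradient separated native lysate of nuclei into sucrose fractions F2 to F9, sampled once each at 12 h and at 0 h. In these bulk samples, fewer cells of a type and less RNA per cell cannot be told apart.

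A snoRNA host gene carries its small RNAs in introns. After splicing, exonucleases trim the freed intron to the ends of the small RNA, which proteins protect, and the RNA exosome takes part in such trimming at the 3′ side. The spliced exons of noncoding hosts have short or no open reading frames, and many are known targets of nonsense-mediated decay, the pathway that removes RNAs with an early stop codon. Box C/D RNAs (Snord) guide 2′-O-methylation of rRNA and box H/ACA RNAs (Snora) guide pseudouridylation, while small Cajal body RNAs (scaRNAs) guide the modification of spliceosomal RNAs.

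By the coordinates of the tables, on mm10, Snora genes alone lay in Snhg3 (Snora73b, with Snora73a across its edge), Snhg4 (Snora74a), Snhg8 (Snora24) and Snhg9 (Snora78). Snhg12 held Snora44, Snora61 and Snord99, and Snhg20 held the scaRNA gene Gm26083. Named Snord genes lay in Snhg5 (Snord50a and Snord50b), Snhg6 (Snord87), Snhg1 (Snord22 among 8 small RNA genes) and Gas5 (Snord47 and Snord78 among 8). The results are ordered by these small RNA classes, an order chosen with the values in view. In the tables Snhg1 spans chr19:8723475-8726443, Snhg3 chr4:132351934-132352933 and Snhg5 chr9:88521050-88522929. Snhg6 spans chr1:9941959-9944118, Snhg8 chr3:123507552-123508404, Snhg9 chr17:24719531-24719965 and Snhg12 chr4:132308678-132311024. Snhg20 spans chr11:117076790-117078955 and Gas5 chr1:161034607-161038539. Other annotated genes overlap parts of Snhg3 (Gm17300), Snhg4 (Gm28285 and AC121821.1), Snhg6 (Mcmdc2), Snhg20 (Mir6516) and Gas5 (Zbtb37). The labels do not say whether counting used strand, so the members' values may include reads of these genes.

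Many snoRNA hosts are known to start their RNA within a 5′ terminal oligopyrimidine tract, a feature that makes an mRNA's translation depend on growth signals. Promoters of 8 of the 10 members were matched by symbol in RefSeq (GRCm38.p6). The 5 below, 100 bases each with 50 on either side of the start, are examples from members whose RNAs rose or fell. Gas5 fell in RNPmesh and in ESC total RNA at 20 h, but was called in no fraction as deposited. Of its 2 listed starts only the second is printed. Capitals mark a C followed by at least 4 of C or T that begins within 20 bases of the start, and the letters TATA within 50 bases of it; the tract was read on the transcribed strand and TATA reads alike on both strands, and the tract and TATA did not overlap.
Snhg20 (chr11:117076733-117076832, plus strand): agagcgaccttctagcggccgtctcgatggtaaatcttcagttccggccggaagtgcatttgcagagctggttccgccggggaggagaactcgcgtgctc
Snhg3 (chr4:132353637-132353736, minus strand): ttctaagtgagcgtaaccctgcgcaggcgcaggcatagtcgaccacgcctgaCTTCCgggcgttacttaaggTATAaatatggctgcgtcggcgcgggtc
Snhg5 (chr9:88522848-88522947, minus strand): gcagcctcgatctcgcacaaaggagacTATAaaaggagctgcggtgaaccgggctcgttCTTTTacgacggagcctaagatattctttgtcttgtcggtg
Snhg12 (chr4:132308628-132308727, plus strand): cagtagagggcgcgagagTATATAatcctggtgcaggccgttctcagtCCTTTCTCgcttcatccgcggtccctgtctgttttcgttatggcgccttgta
Gas5, its second listed start (chr1:161035116-161035215, plus strand): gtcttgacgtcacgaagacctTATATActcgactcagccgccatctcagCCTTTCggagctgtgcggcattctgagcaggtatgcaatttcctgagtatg

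The tract began at base 3 in Snhg3 (CTTCC) and at base 10 in Snhg5 (CTTTT), counting the start itself as base 1. It began 2 bases before the start in Snhg12 (CCTTTCTC) and 1 before it at this start of Gas5 (CCTTTC). It was also read in Snhg8 (CTCTTT) and Snhg9 (CTTTCCCTC), but in neither Snhg1, Snhg20 nor the first start of Gas5. Of 32851 RefSeq promoters, 49.4% hold such a tract and 13.7% hold TATA within 50 bases of the start. TATA began 29 to 32 bases before the start in Snhg12, Snhg8 and the second start of Gas5, 27 before it in Snhg1 and 23 before it in Snhg5. By the same count it began at base 23 in Snhg3 and at base 35 in Snhg9. It was not in the window of Snhg20 or of the first start of Gas5. The RefSeq start of Snhg3 lies outside the span that the tables give. Rps2, a ribosomal protein gene, starts 98 bp from Snhg9 on the opposite strand, and Zbtb37 starts 248 bp from the first start of Gas5 on the opposite strand. All 8 members with a listed start had a deposited H3K27ac peak, a mark of active promoters and enhancers, within 1000 bp of it at 4 h and at 0 h, against 73.8% and 72.8% of genes tested in ESC RNA. The labels hold 2 sets of 0 h H3K27ac samples and do not say which of them the 0 h peak list comes from.

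FPKM and RPKM tables give no read depth, but low nascent values were whole multiples of a step, within 0.05, for 94.1% to 95.8% of values. That step implied 5.36e+06 to 1.13e+07 reads per library. Of the low values 96.0% to 96.9% were even numbers of steps, so independent fragments may be fewer than these reads. Exosc2 mRNA is no check of depletion, which acts on the protein, and its level in ESC RNA was 3.75 and 2.74 FPKM at 0 h, 2.64 and 2.17 at 4 h and 1.04 and 0.938 at 20 h. The summed level of 7 ESC markers was 1578 to 1628 FPKM in ESCs at 0 h and 6.00 to 6.21 in iMEFs at 0 h, and that of 8 fibroblast markers was 87.2 to 97.2 in ESCs and 2258 to 2260 in iMEFs. Gm42418 took 16.1% to 23.6% of the summed value in the 8 nascent libraries, and Gm22357, a snoRNA gene inside Gas5, 14.6% to 18.8% in the 4 chrRNP libraries. In 3 further libraries an RNA that did not lead the other library of the group took a large share, Snord49b 42.2% in RNPmesh 0 h replicate 2, Mir6236 19.3% in RNPmesh 4 h replicate 1 and AY036118 15.2% in ESC 4 h replicate 1. The values were compared as log2(value + 1) with limma, with p-values adjusted by the Benjamini-Hochberg method over all genes tested, and a change was called at an adjusted p below 0.05. Each change carries its standard error from that model, and on this scale changes understate the change of low genes.

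In ESC total RNA at 4 h of IAA, the scaRNA host Snhg20 and the Snora hosts Snhg4 and Snhg3 rose, while Snhg5, Snhg12 and Snhg1 fell. These 6 of 10 members stand against 25.6% of all 12461 genes tested, where 4.47% were higher and 21.2% lower. The members' median log2 change was -0.10 and that of all genes -0.31. After each library was rescaled by the median ratio of its genes, 742 genes were higher and 256 lower, and 3 members were higher and 2 lower, with Snhg1 at -0.03.

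Snhg20 had 19.4 and 16.5 FPKM at 0 h, 87.4 and 95.9 at 4 h and 94.2 and 78.1 at 20 h. All 4 treated libraries lay far above both untreated ones, with log2 changes of 2.29 ± 0.15 at 4 h (adjusted p = 0.00132) and 2.201 ± 0.15 at 20 h (adjusted p = 9.31e-05). Snhg4 had 18.2 and 19.6 FPKM at 0 h, 56.6 and 64.6 at 4 h and 19.5 and 19.5 at 20 h. It was therefore high at 4 h (1.63 ± 0.12, adjusted p = 0.00202), while its 20 h libraries lay within the range of the untreated ones (0.04, adjusted p = 0.766). Snhg3, the host of the H/ACA RNAs Snora73a and Snora73b, had 32.4 and 28.3 FPKM at 0 h, 70.4 and 77.5 at 4 h and 24.3 and 24.1 at 20 h. Its change was 1.26 ± 0.12 at 4 h (adjusted p = 0.00603) and -0.31 ± 0.12 at 20 h (adjusted p = 0.055), which became 0.62 after rescaling (adjusted p = 0.000908).

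Snhg5, the host of Snord50a and Snord50b, had 86.7 and 75.7 FPKM at 0 h, 32.4 and 39.2 at 4 h and 10.6 and 10.1 at 20 h. The 3 times did not overlap, and the change was -1.16 ± 0.14 at 4 h (adjusted p = 0.0098) and -2.85 ± 0.14 at 20 h (adjusted p = 7.69e-05). Snhg12 had 88.9 and 81.8 FPKM at 0 h, 36.8 and 47.2 at 4 h and 20.0 and 19.3 at 20 h, again lower at each later time (-1.01 ± 0.15, adjusted p = 0.0146, and -2.06 ± 0.15, adjusted p = 0.000101). Snhg1 had 76.3 and 77.6 FPKM at 0 h, 57.5 and 58.3 at 4 h and 32.3 and 35.03 at 20 h. Its fall at 4 h was small (-0.40 ± 0.11, adjusted p = 0.0441), and its fall at 20 h (-1.17 ± 0.11, adjusted p = 0.000189) did not pass after rescaling (-0.23).

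At 20 h, 7 of 10 members were called, Snhg20 higher and 6 lower, in a comparison in which 77.3% of all genes were called (9.47% higher and 67.8% lower) and the all-gene median was -0.76. Gas5, whose spliced RNA accumulates in growth-arrested cells and was first named for that, had 79.7 and 68.3 FPKM at 0 h, 62.0 and 75.0 at 4 h and 26.9 and 29.8 at 20 h, and fell at 20 h (-1.35 ± 0.15, adjusted p = 0.000308). Snhg6 and Snhg8 fell as well (-1.69 and -0.96), with Snhg6 at 20.9 and 15.5 FPKM at 20 h against 68.8 and 52.5 at 0 h and Snhg8 at 41.6 and 38.4 against 92.5 and 66.8. After rescaling 3423 genes were higher and 3466 lower, and the members split into 3 higher (Snhg3, Snhg4 and Snhg20) and 4 lower (Snhg5, Snhg6, Snhg12 and Gas5), with Snhg8 at -0.02. All 7 ESC markers were also lower at 20 h, with a summed level of 464 to 509 FPKM against 1578 to 1628 at 0 h, and 4 of 5 epithelial and trophoblast markers were higher (108.1 to 109.7 against 80.6 to 86.4 FPKM), with no marker of either list at 0. Their part in the members' values was not tested.

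The ESC calls at 4 h rest on few libraries. Snhg20 and Snhg4 were called whichever library was left out, but only 3 members were called without 0 h replicate 1 and 2 without 0 h replicate 2. Snhg9, annotated as antisense RNA, had 4.20 and 5.90 FPKM at 0 h, 0 and 31.0 at 4 h and 7.36 and 4.74 at 20 h. Its 4 h libraries lay on both sides of the untreated ones, and the change was 2.41 without 4 h replicate 1 and -2.58 without 4 h replicate 2, so no direction is given for it in this table.

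**Figure D1:**
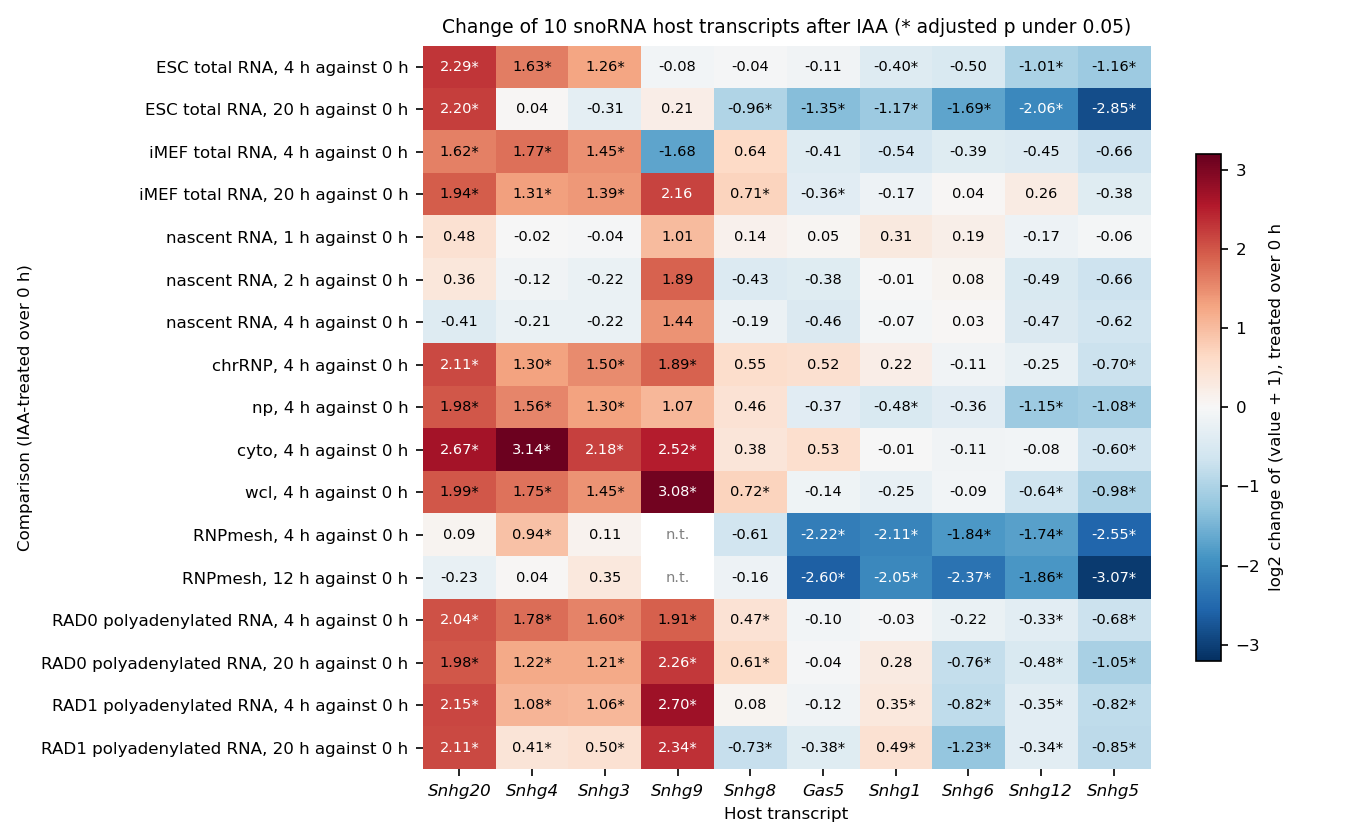
Log2 change (colour and number, treated over 0 h, of FPKM or RPKM + 1) of each host transcript (x axis) in each of 17 comparisons (y axis), with an asterisk where the adjusted p is under 0.05 and n.t. where not tested. The highest value is 3.14, of Snhg4 in cyto, and the lowest -3.07, of Snhg5 in RNPmesh at 12 h.

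In iMEFs the same question was asked of fibroblast-like cells, whose ESC markers were near 0. At 4 h, 3 of 10 members were called, all higher, against 1.63% of genes, 1.43% of them higher. Snhg20 had 8.44 and 7.93 FPKM at 0 h, 24.5 and 30.3 at 4 h and 37.8 and 30.9 at 20 h (1.62 ± 0.14 at 4 h, adjusted p = 0.00477). Snhg4 had 2.32 and 3.204 FPKM at 0 h, 10.7 and 12.8 at 4 h and 9.43 and 7.16 at 20 h (1.77 ± 0.17 at 4 h, adjusted p = 0.00673). All 4 treated libraries of both genes lay above the untreated ones. Snhg3 had 5.67 and 5.03 FPKM at 0 h, 17.8 and 15.0 at 4 h and 20.3 and 12.0 at 20 h, and its call at 4 h (1.45 ± 0.23, adjusted p = 0.039) was lost when any 1 library was left out of the 4 compared, with adjusted p from 0.0601 to 0.144.

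At 20 h in iMEFs, 5 of 10 members were called against 27.4% of genes, 5.21% higher and 22.2% lower. Snhg20 (1.94 ± 0.14), Snhg3 (1.39 ± 0.23) and Snhg4 (1.31 ± 0.17) rose, with adjusted p of 0.000542, 0.00817 and 0.00397. Snhg8, the Snora24 host, had 20.5 and 23.1 FPKM at 0 h and 45.1 and 28.9 at 20 h (0.71 ± 0.21, adjusted p = 0.0491), and Gas5 fell slightly (-0.36 ± 0.10, adjusted p = 0.0454). The calls of Snhg8 and Gas5 were lost without 0 h replicate 1 or 0 h replicate 2, that of Snhg8 also without 20 h replicate 1 and that of Gas5 without 20 h replicate 2 and after rescaling, which left 4 members higher and none lower. Without 0 h replicate 1 only 3 members were called. Of all 12988 genes tested, 1709 were higher and 1757 lower at 20 h after rescaling. Snhg5 did not pass at either time (-0.66, adjusted p = 0.0542, and -0.38, adjusted p = 0.0512). The ESC and iMEF tables were normalized separately, so their values were not tested against each other. Of 8 fibroblast markers 4 were lower at 20 h (summed level 1735 to 1962 FPKM against 2258 to 2260 at 0 h), and their part in these changes was not tested.

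Nascent RNA asks whether the amount of freshly made host RNA moved in the first hours. No member was called by limma at 1, 2 or 4 h, against 0.0451%, 0.0113% and 1.90% of genes (at 4 h, 1.57% higher and 0.338% lower). At an unadjusted p below 0.05 stood Snhg20 at 1 h, Snhg5 and Snhg12 at 2 h, and Snhg5, Snhg12 and Gas5 at 4 h. Of all 8876 genes tested, 487, 719 and 1573 stood there at 1, 2 and 4 h. The RPKM values are computed over the whole gene span, so introns and the small RNAs within them count. Snhg20 had 9.60 and 8.02 RPKM at 0 h, 13 and 12.3 at 1 h, 10.5 and 12.6 at 2 h and 5.64 and 7.17 at 4 h. It was thus above the untreated libraries at 1 and 2 h (0.48 and 0.36) and below them at 4 h (-0.41 ± 0.17, adjusted p = 0.288), when its level in total RNA was high. Snhg4 had 55.2 and 56.3 RPKM at 0 h, 54.1 and 56.0 at 1 h, 49.4 and 52.8 at 2 h and 49.1 and 47.1 at 4 h, a difference of -0.21 ± 0.11 at 4 h (adjusted p = 0.389).

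Snhg3 had 73.6 and 78.3 RPKM at 0 h, 58.9 and 92.9 at 1 h, 65.5 and 64.5 at 2 h and 67.6 and 62.6 at 4 h, and the 1 h libraries spread on both sides of the rest. Snhg5 had 80.3 and 86.1 RPKM at 0 h, 78.8 and 80.6 at 1 h, 63.0 and 43.4 at 2 h and 55.7 and 51.5 at 4 h. Its 4 libraries of 2 and 4 h lay below the others (-0.62 ± 0.19 at 4 h, adjusted p = 0.186). Snhg12 (-0.47, adjusted p = 0.27) and Gas5 (-0.46, adjusted p = 0.276) were also below at 4 h without passing, and Snhg1 (-0.07) and Snhg6 (0.03) overlapped with 0 h. Snhg9 was at 0 RPKM in both untreated libraries and at 0 to 6.32 in the treated ones. In simulated data with the spread of this table, 42% of log2 changes of 1 and 50% of changes of 2 were recovered at 1 h, so changes of this size can be missed.

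**Figure D2:**
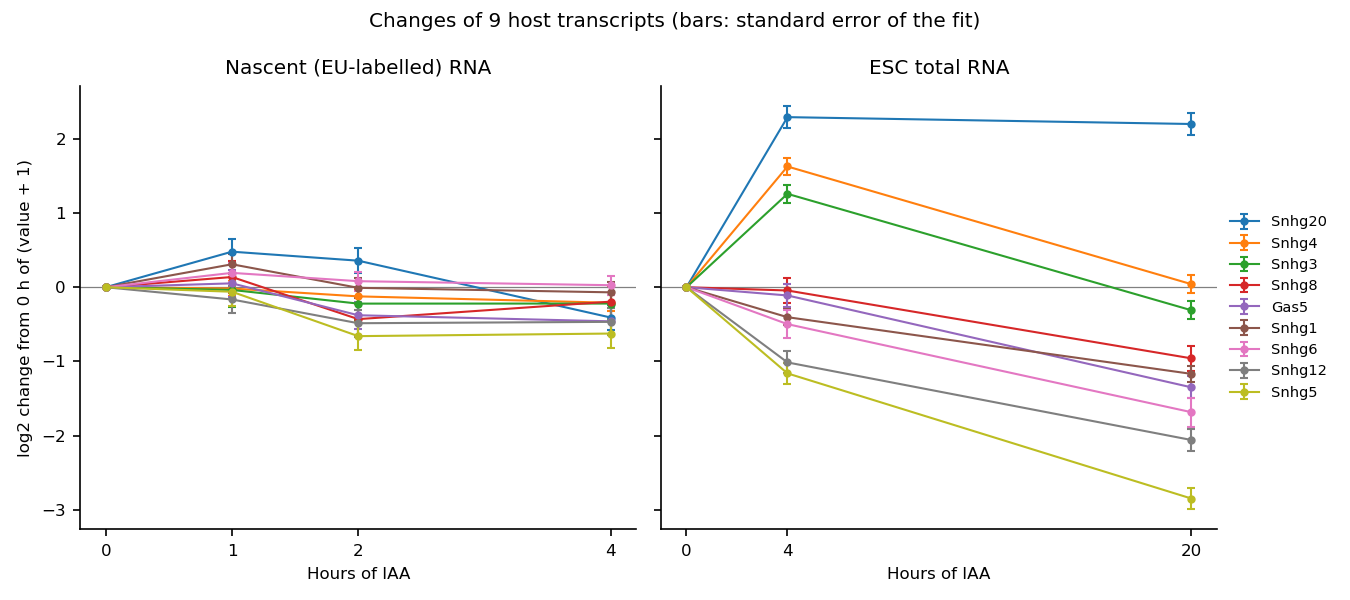
Log2 change from 0 h of (value + 1) for 9 host transcripts against hours of IAA, in nascent RNA (left) and ESC total RNA (right), with bars for the standard error of the fit; Snhg9 is left out. At 4 h Snhg20 is at -0.41 in nascent RNA and 2.29 in total RNA, and Snhg5 at -0.62 and -1.16.

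The fractions show in which compartment the host RNAs stood. In untreated cells, 7 of 10 members were higher in nucleoplasm than in cytoplasm, against 61.9% of genes called in either direction with 28.0% higher and 33.8% lower. The largest differences were those of Snhg20 (53.9 ± 5.97 FPKM in np and 8.25 ± 2.50 in cyto, SD, n = 2 each, log2 difference 2.59 ± 0.25), Snhg4 (2.58) and Snhg12 (2.25). Snhg3 (1.77), Snhg5 (1.68), Gas5 (0.75) and Snhg1 (0.64) followed, and these 7 were called whichever library was left out. Snhg6 (0.05 ± 0.15), Snhg8 (0.40 ± 0.18) and Snhg9 (0.87 ± 0.44) did not pass. After rescaling Snhg8 (0.66, adjusted p = 0.00335) and Snhg9 (1.12, adjusted p = 0.0328) passed as well, so that 9 of 10 were higher. On that scale 4603 of all 14069 genes tested were higher in np and 4078 lower. As a check of the fractions, Malat1, a nuclear RNA, averaged 1645 FPKM in np, 496 in chrRNP and 148 in cyto. At 0 h 5 nuclear RNA markers summed to 1718 to 1874 FPKM in np and 157 to 169 in cyto. The 5 cytosolic mRNA markers summed to 3057 to 3382 FPKM in np and 5418 to 5778 in cyto, so np was not free of them.

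Chromatin against cytoplasm depends on the scale. As deposited, Snhg4 (2.07), Snhg12 (1.41), Snhg20 (0.90), Snhg5 (0.77) and Snhg3 (0.61) were higher in chrRNP and Snhg6, Gas5, Snhg1 and Snhg8 lower, against 77.7% of genes called, 14.3% higher and 63.4% lower, with an all-gene median of -0.88. After rescaling 9 were higher and none lower, and 5268 genes were higher and 4624 lower. Snhg4, Snhg12, Snhg20, Snhg5 and Snhg3 were thus higher in chrRNP on both scales, but the call of Snhg3 was lost without chrRNP 0 h replicate 2 or cyto 0 h replicate 2 (adjusted p = 0.0626 and 0.109), that of Snhg20 without cyto 0 h replicate 2 (0.0749) and that of Snhg8 without cyto 0 h replicate 1 (0.0554). Against np, all 10 members were lower in chrRNP (79.6% of genes called, 4.99% higher and 74.6% lower, median -0.90), but after rescaling 1 was higher (Snhg4, 0.66) and 2 lower (Snhg20, -0.56, and Gas5, -0.42). Of all 14069 genes tested, 2300 were then higher and 2907 lower.

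At 4 h of IAA, Snhg20, Snhg4 and Snhg3 rose in all 4 fractions, and these 12 calls held whichever library was left out. Of 10 members, 4 were higher and 1 lower in chrRNP, against 8.82% of genes called, 7.95% higher and 0.867% lower. In np 3 were higher and 3 lower, against 30.8% of genes, 7.43% higher and 23.4% lower. In cyto 4 were higher and 1 lower, against 6.45% of genes, 5.04% higher and 1.41% lower, and in wcl 5 were higher and 2 lower, against 19.2%, 5.74% higher and 13.5% lower. The members' medians were 0.54, 0.05, 0.46 and 0.31, and those of all genes 0.21, -0.29, 0.04 and -0.23. The 5 nuclear RNA markers summed to 1231 to 1242 FPKM in chrRNP at 4 h against 602 to 635 at 0 h, 1316 to 1407 in np against 1718 to 1874, 192 to 199 in cyto against 157 to 169 and 678 to 694 in wcl against 650.0 to 656, with 3, 2, 2 and 3 of 5 higher and none lower. The 5 cytosolic mRNA markers summed to 1249 to 1800 FPKM in chrRNP at 4 h against 664 to 1470 at 0 h, so the untreated chrRNP libraries differed widely. No marker of these lists was at 0, and their part in the members' changes was not tested.

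Snhg4, the Snora74a host, had 77.4 and 83.8 FPKM in cyto at 4 h against 9.55 and 7.10 at 0 h, a log2 change of 3.14 ± 0.17 (adjusted p = 3.82e-06). In np it had 165 and 159 FPKM at 4 h against 56.7 and 51.9 at 0 h (1.56 ± 0.17, adjusted p = 0.000132), and in chrRNP 88.7 and 101 at 4 h against 35.5 and 40.5 at 0 h (1.30 ± 0.17, adjusted p = 0.000692). The rise was smaller in both nuclear fractions than in cyto. The log2 change in chrRNP minus that in cyto was -1.84 ± 0.24 (interaction, adjusted p = 0.0146), where 0.135% of genes were called (0.0924% higher and 0.0426% lower) and 1 member. The log2 change in np minus that in cyto was -1.58 ± 0.24 (adjusted p = 0.0272), where 1.00% of genes were called (0.419% higher and 0.583% lower) and 2 members. The chrRNP difference did not pass without cyto 0 h replicate 2, chrRNP 4 h replicate 1, cyto 4 h replicate 1 or cyto 4 h replicate 2 (adjusted p 0.0542 to 0.0751). The np difference was called in only 1 of 8 fits that left out a library, the one without cyto 0 h replicate 1, and not with a pseudocount of 0.1 (adjusted p = 0.0522).

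Snhg20 had 55.5 and 58.0 FPKM in cyto at 4 h against 10.0 and 6.48 at 0 h (2.67 ± 0.25, adjusted p = 9.56e-05). In np it had 221 and 208 FPKM at 4 h against 58.1 and 49.7 at 0 h (1.98 ± 0.25, adjusted p = 0.000315). In chrRNP it had 59.1 and 88.1 FPKM at 4 h against 12.9 and 19.5 at 0 h (2.11 ± 0.25, adjusted p = 0.000335). The treated libraries lay above the untreated ones in each fraction, and the rise in chrRNP or np did not differ from that in cyto by the interaction test (-0.55 ± 0.35, adjusted p = 0.666, and -0.69 ± 0.35, adjusted p = 0.275). Snhg3 had 115 and 123 FPKM in cyto at 4 h against 28.0 and 23.0 at 0 h (2.18 ± 0.20, adjusted p = 7.52e-05) and 233 and 207 in np at 4 h against 95.3 and 82.7 at 0 h (1.30 ± 0.20, adjusted p = 0.000931). In chrRNP it had 97.6 and 131 against 34.9 and 44.1 (1.502 ± 0.20).

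Snhg9, the Snora78 host beside Rps2, had 151 and 140.0 FPKM in wcl at 4 h against 28.2 and 9.27 at 0 h (3.08 ± 0.44, adjusted p = 0.00117). In cyto it had 190.4 and 134 FPKM at 4 h against 20.8 and 34.8 at 0 h (2.52 ± 0.44, adjusted p = 0.00538, and 0.0555 without cyto 0 h replicate 1). In chrRNP it had 57.1 and 65.2 FPKM at 4 h against 11.4 and 21.7 at 0 h (1.89 ± 0.44, adjusted p = 0.0218). It did not pass in np (1.07 ± 0.44, adjusted p = 0.0869), where its libraries also lay above those of 0 h. Snhg8 passed only in wcl, where it had 108 and 105 FPKM at 4 h against 73.6 and 55.9 at 0 h (0.72 ± 0.18, adjusted p = 0.0185), and it was not called there without wcl 0 h replicate 2, 4 h replicate 1 or 4 h replicate 2. Without 4 h replicate 1 or 4 h replicate 2 of chrRNP the calls in that fraction came to 3, and without cyto 0 h replicate 1 those in cyto came to 3, namely Snhg3, Snhg4 and Snhg20 in each case.

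Snhg5, a C/D host, fell in all 4 fractions. In np it had 76.5 and 79.0 FPKM at 4 h against 164 and 167 at 0 h (-1.08 ± 0.15, adjusted p = 0.000586). In wcl it had 40.7 and 46.6 FPKM at 4 h against 84.3 and 89.9 at 0 h (-0.98 ± 0.15, adjusted p = 0.00192). The falls in chrRNP (-0.70 ± 0.15, adjusted p = 0.0154) and cyto (-0.60 ± 0.15, adjusted p = 0.0405) were smaller, and the one in cyto was lost with any 1 library left out (adjusted p 0.113 to 0.247).

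Snhg12 had 86.8 and 85.9 FPKM in np at 4 h against 189 and 197 at 0 h (-1.15 ± 0.14, adjusted p = 0.000219). In cyto it had 39.1 and 36.3 FPKM at 4 h against 40.9 and 38.5 at 0 h, and these libraries overlapped (-0.08 ± 0.14). The log2 change in np minus that in cyto was -1.08 ± 0.19 (interaction, adjusted p = 0.0359), which was not called after rescaling (-0.74, adjusted p = 0.165), with a pseudocount of 0.1 (adjusted p = 0.1004) or with any 1 of the 8 libraries left out (adjusted p 0.0751 to 0.143). Its fall in wcl (-0.64 ± 0.14, adjusted p = 0.00965) was lost with any 1 library left out and after rescaling (-0.37, adjusted p = 0.132). Snhg1 fell in np alone (-0.48 ± 0.17, adjusted p = 0.0466), a call lost with any 1 library left out (adjusted p 0.146 to 0.174) and after rescaling (-0.20). Gas5 and Snhg6 passed in no fraction as deposited. Gas5 had 109 and 113 FPKM in cyto at 4 h against 74.4 and 79.0 at 0 h (0.53 ± 0.18, adjusted p = 0.133), which passed after rescaling (0.47, adjusted p = 0.0193). Rescaling gave 4 members higher and 2 lower in chrRNP, 5 and 2 in np, 5 and 1 in cyto, and 5 and 1 in wcl. Of all 14069 genes tested, it gave 1226 higher and 1169 lower in chrRNP and 1227 and 1133 in np. In cyto these numbers were 569 and 350, and in wcl 948 and 508.

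**Figure D3:**
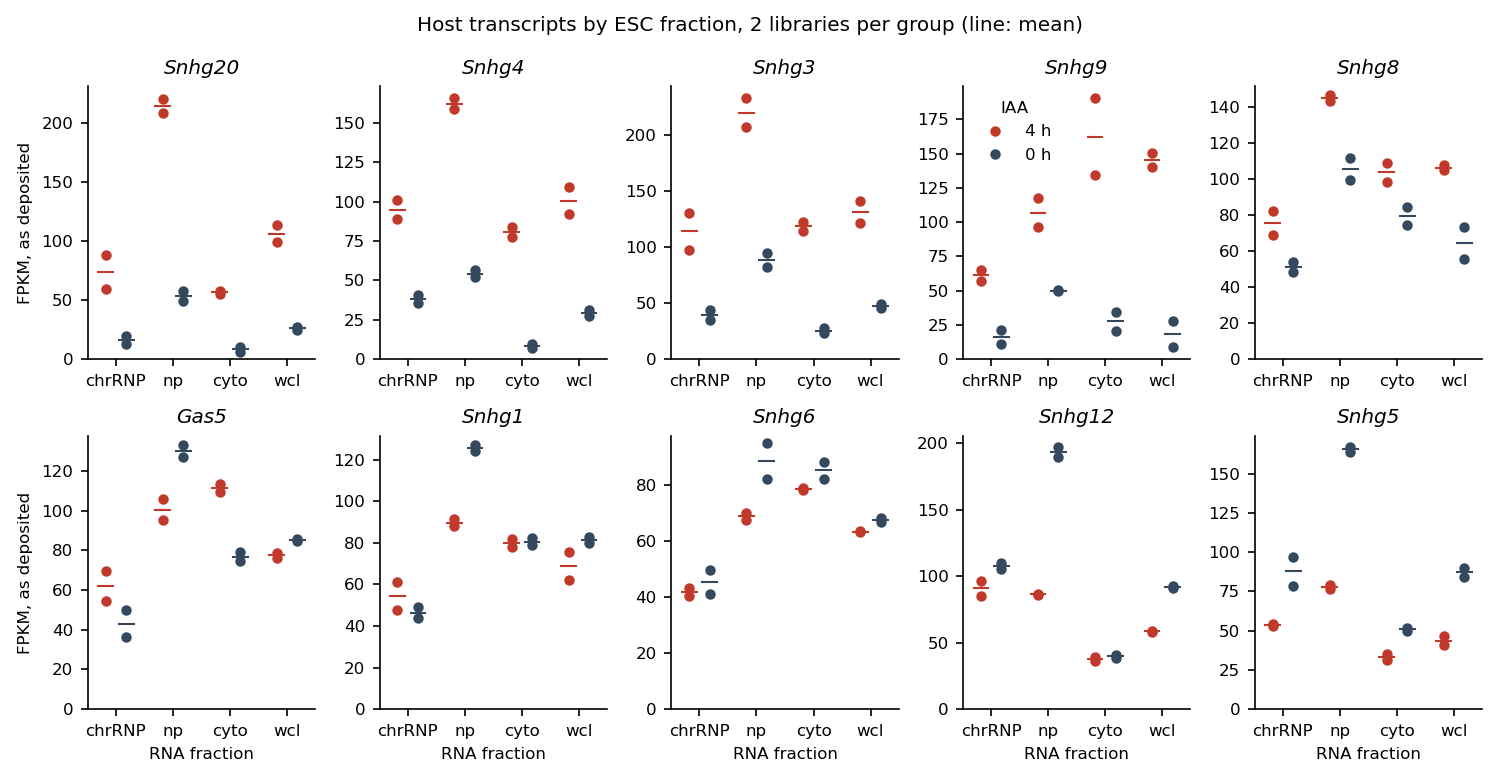
Level of each host transcript (FPKM) in the chrRNP, np, cyto and wcl fractions at 4 h and 0 h of IAA, with each library as a point and a line at the mean. Snhg4 in cyto lies at 77.4 to 83.8 FPKM at 4 h against 7.10 to 9.55 at 0 h, while Snhg5 in np lies at 76.5 to 79.0 against 164.0 to 167.4.

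The small RNAs inside the hosts were measured in the same libraries. Snora74a, inside Snhg4, had 1029 and 874 FPKM in np at 4 h against 1439.6 and 1345 at 0 h (log2 change -0.55, adjusted p = 0.219). Gm26083, inside Snhg20, had 211 and 238 FPKM in np at 4 h against 283 and 251 at 0 h, and 87.0 and 81.0 in cyto at 4 h against 41.8 and 59.5 at 0 h (0.74, adjusted p = 0.248). Snora73a, at Snhg3, had 5142 and 5068 FPKM in np at 4 h against 2570.3 and 3296 at 0 h (0.81, adjusted p = 0.0744). None of these 3 passed in these fractions, while their hosts rose in each of them. Gm22357, inside Gas5, was the most abundant, with 133218 and 128508 FPKM in chrRNP at 4 h against 179529 and 115583 at 0 h (-0.14, adjusted p = 0.903), and Snord47, also inside Gas5, had 5261 and 5309 there at 4 h against 12817 and 6325 at 0 h (-0.77, adjusted p = 0.887). In np Gm22357 had 7837 and 9643 FPKM at 4 h against 4636 and 5209 at 0 h, a rise that was not called. Of the 28 small RNA genes 17 were tested in the fractions, and in the 4 fractions 3 of 68 tests passed. These were Snord22 in cyto, Gm22744 in wcl (higher, listed at 0 in both 0 h libraries) and Gm24452 in np (lower, listed at 0 in both 4 h libraries). Among all genes tested, 8.82% were called in chrRNP, 30.8% in np, 6.45% in cyto and 19.2% in wcl. Snord22, inside Snhg1, passed in cyto, with 157 and 181 FPKM at 4 h against 89.6 and 53.5 at 0 h (1.27, adjusted p = 0.0357). In ESC total RNA 1 of 10 hosted RNAs tested was lower at 4 h (Snora24), against 21.2% of all genes. At 20 h 1 of 10 was higher and 4 lower, against 9.47% and 67.8% of all genes. In RAD1 cells 4 of 15 were lower at 4 h, Snora73a among them, and 3 of 15 at 20 h. There 32.7% and 33.8% of all genes were lower. None passed in iMEFs or in nascent RNA. FPKM of RNAs this short depends on the fragment lengths kept in the library, and many hosted RNAs were listed at 0 in some libraries and at high values in others.

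RNPmesh is the pellet of RNA, protein and DNA that resists washing, and in it Snhg5, Gas5, Snhg1, Snhg6 and Snhg12 fell at both times. At 4 h, 6 of the 9 members tested were called, 5 lower and 1 higher, against 24.6% of genes, 19.1% lower and 5.49% higher. At 12 h, 5 members were called, all lower, against 48.0% of genes, 31.6% of all genes being lower. The members' medians were -1.74 at 4 h and -1.86 at 12 h, and those of all genes -0.20 and -0.23. Rescaling gave 1518 genes higher and 1153 lower at 4 h, with 1 and 5 members as before, and 3113 higher and 3007 lower at 12 h, with 1 member (Snhg3, 0.62) higher and 5 lower.

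Snhg5 had 163 and 171 FPKM at 0 h, 26.5 and 29.0 at 4 h and 19.8 and 18.2 at 12 h. The fall was -2.55 ± 0.20 at 4 h (adjusted p = 0.000854) and -3.07 ± 0.20 at 12 h (adjusted p = 6.11e-05), with all treated libraries far below both untreated ones. Gas5 had 164 and 206 FPKM at 0 h, 33.0 and 45.4 at 4 h and 30.7 and 28.2 at 12 h (-2.22 ± 0.24, adjusted p = 0.00268, and -2.60 ± 0.24, adjusted p = 0.000154). Snhg1 had 115 and 123 FPKM at 0 h, 28.4 and 25.2 at 4 h and 26.4 and 29.6 at 12 h (-2.11 ± 0.20, adjusted p = 0.00193, and -2.05 ± 0.20, adjusted p = 0.000195). Both hosts of 8 small RNA genes were thus at similar low levels at 4 and 12 h. Snhg6, the Snord87 host, had 55.6 and 55.0 FPKM at 0 h, 16.3 and 13.2 at 4 h and 8.85 and 11.1 at 12 h (-1.84 ± 0.21, adjusted p = 0.00306, and -2.37 ± 0.21, adjusted p = 0.000136). Snhg12 had 154 and 277 FPKM at 0 h, 57.3 and 65.3 at 4 h and 55.8 and 56.6 at 12 h (-1.74 ± 0.29, adjusted p = 0.00645, and -1.86 ± 0.29, adjusted p = 0.00124). Its untreated libraries differed widely, the higher of them being 0 h replicate 2, which Snord49b led.

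Of the 4 members tested whose small RNAs are H/ACA or scaRNA alone, 1 was called in RNPmesh at 4 h and none at 12 h, while Snhg12, which holds Snora and Snord genes, fell at both times. Snhg4 had 42.5 and 39.3 FPKM at 0 h, 82.5 and 76.5 at 4 h and 45.4 and 39.0 at 12 h, higher at 4 h (0.94 ± 0.21, adjusted p = 0.0144) and overlapping with 0 h at 12 h (0.04). Snhg20 had 104 and 187 FPKM at 0 h, 149 and 147 at 4 h and 130.2 and 108 at 12 h, and these overlapped (0.09 ± 0.30 and -0.23 ± 0.30). Snhg3 had 57.3 and 62.1 FPKM at 0 h, 63.0 and 65.6 at 4 h and 79.2 and 73.3 at 12 h (0.11 and 0.35, adjusted p = 0.735 and 0.188), and Snhg8 did not pass either (-0.61 and -0.16). Snhg9 was listed at 0 in all 6 libraries and was not tested.

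Without 4 h replicate 1, which Mir6236 led, only Snhg5 was called at 4 h, although the values stayed close to those with all libraries (Snhg1 -2.197, Gas5 -1.99, Snhg6 -1.99, Snhg12 -1.64 and Snhg4 0.89, with adjusted p from 0.0517 to 0.126). The Snhg4 call was also lost without 0 h replicate 2 or 4 h replicate 2, and the Snhg12 call without 4 h replicate 2. At 12 h all 5 were called whichever library was left out. The summed level of 5 nuclear RNA markers in RNPmesh was 4438 to 5634 FPKM at 0 h, 9608 to 9715 at 4 h and 12353 to 18603 at 12 h, with none at 0. The 8 fibroblast markers summed to 934 to 1314 FPKM at 0 h, 1488 to 1511 at 4 h and 682 to 797 at 12 h, most of it Fn1 (897 to 1260 FPKM at 0 h), with Col3a1 at or near 0 at each time. The 7 ESC markers summed to 1082 to 1224 FPKM at 0 h, 683 to 789 at 4 h and 663 to 744 at 12 h, and their part in the members' changes was not tested.

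**Figure D4:**
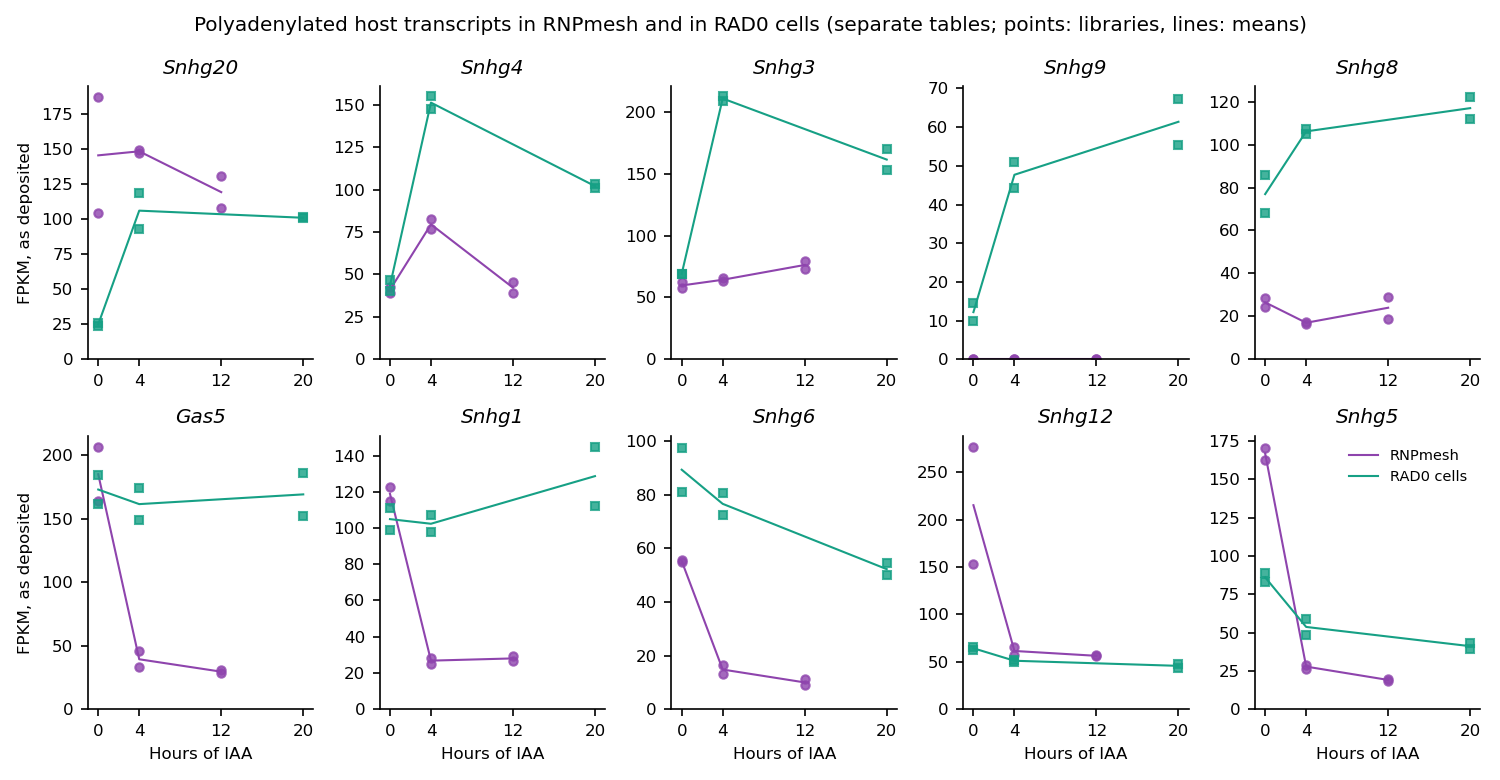
Level of each host transcript (FPKM) in polyadenylated RNA of the RNPmesh pellet at 0, 4 and 12 h and of whole RAD0 cells at 0, 4 and 20 h of IAA, with libraries as points and means joined by lines, from separately normalized tables. Gas5 in RNPmesh lies at 163.6 to 206.3 FPKM at 0 h and 28.2 to 45.4 in the treated libraries, while in RAD0 cells it lies at 149.0 to 185.7 at all 3 times.

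Polyadenylated RNA of whole cells gives the same selection of RNA without the washes, in tables that were normalized separately and so were set side by side with RNPmesh without a test. In RAD0 cells at 4 h, 7 of 10 members were called, 5 higher and 2 lower, against 18.8% of genes, 5.26% higher and 13.5% lower. At 20 h 8 were called, 5 higher and 3 lower, against 51.4% of genes, 18.4% higher and 33.0% lower. Gas5 had 184 and 162 FPKM at 0 h, 149 and 174 at 4 h and 186 and 152 at 20 h, which overlap (-0.10 ± 0.11 at 4 h and -0.04 ± 0.11 at 20 h). Snhg1 had 111 and 98.8 FPKM at 0 h, 97.8 and 107 at 4 h and 145 and 112 at 20 h (-0.03 ± 0.12 and 0.28 ± 0.12, neither called). In whole RAD0 cells these hosts had thus no called fall, where RNPmesh had log2 changes of -2.22 and -2.11 at 4 h. Snhg6 had 81.2 and 97.6 FPKM at 0 h, 72.7 and 80.6 at 4 h and 54.6 and 49.9 at 20 h, lower at 20 h (-0.76 ± 0.19, adjusted p = 0.00878).

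Snhg5 fell in RAD0 cells too (-0.68 ± 0.10 at 4 h, adjusted p = 0.00291, and -1.05 ± 0.10 at 20 h, adjusted p = 3.71e-05), with 83.2 and 88.9 FPKM at 0 h, 58.8 and 48.5 at 4 h and 39.2 and 42.9 at 20 h. Snhg20 had 23.6 and 26.1 FPKM at 0 h, 119 and 93.1 at 4 h and 101 and 101 at 20 h (2.04 ± 0.13, adjusted p = 5.08e-05, and 1.98 ± 0.13, adjusted p = 6.78e-06). Snhg3 had 69.3 and 68.9 FPKM at 0 h, 209 and 213 at 4 h and 169.7 and 153 at 20 h (1.60 ± 0.07, adjusted p = 4.58e-06). Snhg4 had 40.0 and 46.7 FPKM at 0 h, 155 and 147 at 4 h and 101 and 103 at 20 h (1.78 ± 0.10, adjusted p = 1.84e-05). All treated libraries of these 3 genes lay above the untreated ones. Snhg9 had 9.84 and 14.5 FPKM at 0 h, 44.3 and 51.1 at 4 h and 67.3 and 55.5 at 20 h (1.91 ± 0.28, adjusted p = 0.00339), in polyadenylated RNA of the kind in which RNPmesh listed it at 0. Rescaling left 5 members higher and 1 lower at 4 h, with Snhg12 at -0.20. Of all 15408 genes tested, it gave 931 higher and 687 lower. The Snhg12 call at 4 h was lost with any 1 library left out (adjusted p 0.0555 to 0.0949), and the Snhg8 call without 0 h replicate 2, 4 h replicate 1 or 4 h replicate 2 and without the filter on low values. The 5 nuclear RNA markers summed to 335 to 389 FPKM in RAD0 cells at 0 h, 492 to 509 at 4 h and 2255 to 2280 at 20 h, with 4 of 5 higher at both times. The 3 neural markers summed to 12.9 to 13.1, 25.1 to 28.9 and 58.1 to 65.3 FPKM at these times, with 1 higher at 4 h and 1 higher and 2 lower at 20 h. No marker of either list was at 0, and their part in the members' changes was not tested.

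RAD1 cells asked the question 1 day into retinoic acid. Before IAA, 7 of 10 members differed between RAD1 and RAD0 cells, against 46.7% of genes, 27.7% higher and 19.0% lower in RAD1 cells. Snhg8 was higher (0.43 ± 0.14), and Snhg9, Snhg20, Snhg4, Snhg12, Snhg5 and Snhg3 were lower (-1.21, -0.98, -0.59, -0.58, -0.53 and -0.27). Without RAD1 0 h replicate 2 only 4 were called, and after rescaling 6 were lower and none higher. Of all 15408 genes tested, rescaling gave 3522 higher and 3672 lower in untreated RAD1 cells than in untreated RAD0 cells. At 4 h of IAA 8 members were called in RAD1 cells, against 50.8% of genes, 18.1% higher and 32.7% lower. At 20 h all 10 were called, against 57.0% of genes, 23.1% higher and 33.8% lower. Both counts hold members that rose and members that fell. The Snhg1 call at 4 h was lost without 0 h replicate 1, 4 h replicate 1 or 4 h replicate 2 (0.26, 0.39 and 0.30). At 20 h the Snhg1 call was lost without 0 h replicate 1 (0.40). The Gas5 call at 20 h was lost without 0 h replicate 2 or 20 h replicate 2 (-0.32 and -0.36). It was also lost after rescaling (-0.26, adjusted p = 0.0684). The largest rises at 20 h were those of Snhg9, with 24.7 and 30.3 FPKM against 5.604 and 3.79 at 0 h (2.34 ± 0.28, adjusted p = 0.000134), and Snhg20, with 59.5 and 51.7 against 12.6 and 11.6 (2.11 ± 0.13, adjusted p = 2.68e-06). The largest fall was that of Snhg6, with 27.4 and 42.2 FPKM against 84.9 and 77.7 (-1.23 ± 0.19, adjusted p = 0.00053).

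The change at 20 h differed between RAD1 and RAD0 cells for Snhg8, Snhg4 and Snhg3, with 25.6% of genes called in this interaction test. Snhg8 had 53.9 and 70.5 FPKM at 20 h in RAD1 cells against 108 and 98.4 at 0 h, and 122 and 112 at 20 h in RAD0 cells against 85.9 and 68.0 at 0 h. It fell in RAD1 cells and rose in RAD0 cells, a difference of -1.34 ± 0.19 (adjusted p = 0.00149). The rises of Snhg4 and Snhg3 were smaller in RAD1 cells, with differences of -0.81 ± 0.14 (adjusted p = 0.00344) and -0.71 ± 0.10 (adjusted p = 0.00111), and all 3 differences were called whichever library was left out. The 7 ESC markers summed at 0 h to 1628 to 1746 FPKM in RAD1 cells and 2489 to 2491 in RAD0 cells, and at 20 h to 1234 to 1436 in RAD1 and 1515 to 1734 in RAD0 cells, with none at 0. Of 7, 5 had a higher and 1 a lower change in RAD1 cells, and their part in the 3 differences was not tested.

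In the sucrose gradient, a larger fraction number is nearer the bottom of the tube, where heavier complexes run. Each gene's mean fraction number is weighted by its FPKM, and of 3428 genes with a summed FPKM of at least 80 at both times 97.0% had a higher number at 12 h than at 0 h, with a median shift of 0.48. Of the 10 members, 5 had a higher number at 12 h. There was 1 library per fraction and time, so these shifts have no replicate check.

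Snhg9, Snhg4, Snhg3, Snhg1 and Snhg12 had lower mean fraction numbers at 12 h. Snhg9 had 3.73 at 12 h and 4.29 at 0 h, a shift of -0.563, and 0.642% of genes had a smaller one. In its case the values of F2 to F9 were 124, 195, 136, 66.1, 26.1, 22.4, 10.9 and 10.8 FPKM at 12 h and 37.6, 18.4, 22.2, 12.4, 9.15, 8.91, 10.95 and 5.80 FPKM at 0 h, so the gain was in the upper fractions. Snhg4 had 5.86 at 12 h and 6.02 at 0 h, with 3.95, 14.6, 31.1, 54.2, 56.6, 33.9, 21.8 and 22.0 FPKM in F2 to F9 at 12 h and 3.84, 13.2, 20.3, 21.7, 19.5, 22.4, 21.4 and 18.6 at 0 h. Its gain lay in F4 to F7, with the bottom and top fractions close at both times. Snhg3 had 4.90 at 12 h and 5.01 at 0 h, Snhg1 5.18 and 5.21, and Snhg12 5.61 and 5.62, and 1.90%, 2.63% and 2.89% of genes had smaller shifts than these. The sign of the Snhg12 shift turned when all libraries were given the same total (0.221) or F2 was left out (0.164).

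Snhg20 had 5.21 at 12 h and 4.98 at 0 h, with a shift of 0.227 that was smaller than that of most genes. Its values in F2 to F9 were 59.5, 68.3, 114, 181, 177, 89.3, 43.6 and 25.3 FPKM at 12 h and 17.3, 17.7, 42.8, 40.1, 30.5, 17.1, 10.3 and 7.72 FPKM at 0 h, higher in each fraction at 12 h and most of all in F5 and F6. Snhg5 (0.486), Gas5 (0.487) and Snhg8 (0.492) shifted about as much as the median gene, and Snhg6 (0.603) by more than 81.9% of genes. Without F2 the Snhg6 shift was 0.193, below the all-gene median of 0.373 for these fractions, and the Snhg8 shift was 0.186 without F2 and 0.195 when all libraries were given the same total (all-gene median 0.442). Gas5 had 22.7 FPKM in F2 at 12 h against 90.5 at 0 h and 52.8 in F9 at 12 h against 58.5 at 0 h. Snhg6 had 32.8 FPKM in F2 at 12 h against 97.9 at 0 h, and in F3 to F9 its values were nearer to each other. Summed over the fractions, the 12 h to 0 h ratio was 4.72 for Snhg9, 4.13 for Snhg20, 2.27 for Snhg3, 1.69 for Snhg4 and 1.48 for Snhg8, and 0.943 for Snhg1, 0.931 for Snhg12, 0.742 for Snhg6, 0.639 for Gas5 and 0.409 for Snhg5.

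**Figure D5:**
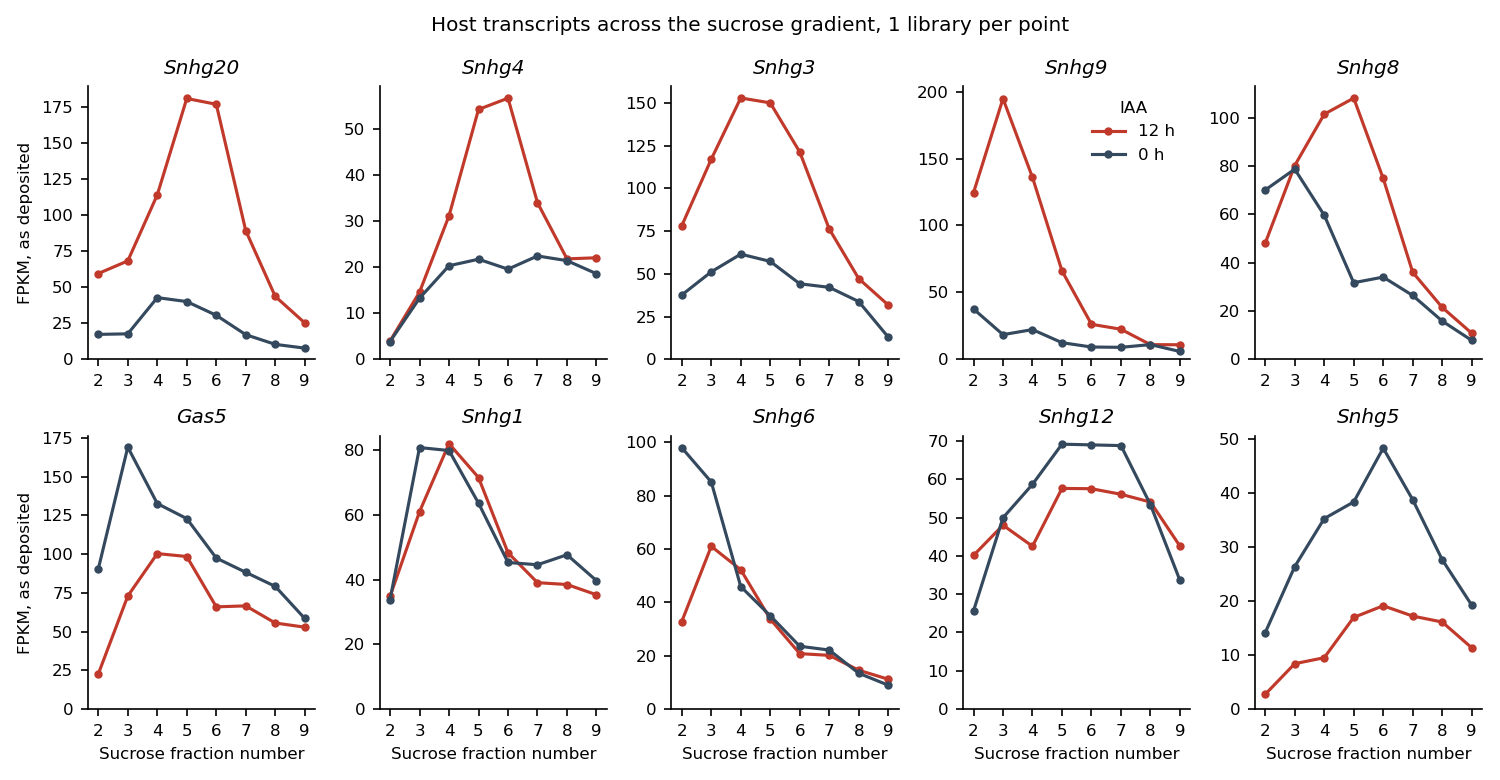
Level of each host transcript (FPKM) in sucrose fractions F2 to F9 at 12 h and 0 h of IAA, 1 library per point. Snhg20 reaches 181 FPKM in F5 at 12 h against 40.1 at 0 h, and Snhg9 195 in F3 against 18.4.

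Set side by side, Snhg20, Snhg3 and Snhg4 were called higher at 4 h of IAA in total RNA of ESCs and iMEFs, in the 4 fractions and in RAD0 and RAD1 cells, while in nascent RNA none of the 3 was called. In RNPmesh at 4 h Snhg4 alone of the 3 was called, a call lost in 3 of 4 fits that left out a library, and the Snhg3 call in iMEFs was lost in 4 of 4. Snhg5 was called lower at 4 h in ESCs, the 4 fractions, RNPmesh, RAD0 and RAD1 cells, and not in iMEFs. Its ESC call was lost without 0 h replicate 1 or 0 h replicate 2 (-1.07 and -1.26). Its chrRNP call was lost without 4 h replicate 1 or 4 h replicate 2 (-0.71 and -0.68), and its cyto call with any 1 library left out. The Snhg3 call in ESCs was lost without 0 h replicate 2 (1.16). The times of a table share its 0 h libraries, and all groups of a table share a fit, so these are not independent tests. Among noncoding snoRNA hosts that are no members, 0 of 6 tested were called by limma in ESC RNA at 4 h (2 at an unadjusted p below 0.05) and 3 of 6 at 20 h, Snhg10 higher (0.82) and Epb41l4aos and Snhg17 lower (-2.23 and -0.64). Of all 12461 genes tested, 25.6% were called at 4 h and 77.3% at 20 h, and 5980 had an unadjusted p below 0.05 at 4 h. Of protein-coding genes that carry snoRNAs, 7 of 30 tested were lower and none higher in ESC RNA at 4 h (median -0.38), and 30 of 30 were lower at 20 h (median -1.49), against 21.2% and 67.8% of all genes lower and all-gene medians of -0.31 and -0.76. In RNPmesh these coding hosts had 8 of 28 lower at 4 h and 17 of 28 at 12 h, against 19.1% and 31.6% of all genes, with medians of -0.60 and -0.93, against -1.74 and -1.86 for the members.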

How the data were processed

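Per the submitters' processing notes, the authors aligned reads to mm10 with TopHat2 2.0.11, and Cufflinks 2.0.2 gave the deposited FPKM values per gene for total, fraction, RNPmesh, RAD0, RAD1 and gradient RNA. The nascent RPKM values were deposited by the authors after Trim Galore, TopHat2 2.0.11 and bedtools on mm10 and dm6, and low values fitted whole reads over the full gene span. Peak lists hold positions called with Bowtie2 2.2.6 and MACS2, per the same notes. The labels name spike-in RNAs, but not whether a factor was applied. Both units are normalized, so no count test was used.

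Values were taken as log2(value + 1), and genes with a value of 1 or more in 2 or more libraries were tested. The 6 tables (54 libraries, 27 groups) were each fitted with limma 3.58.1 with trend (R 4.3.3; data.table, version 1.17.8), all groups of a table together, without a block. For each of 24 contrasts, p-values were adjusted over its genes by the Benjamini-Hochberg method, at a threshold of 0.05, and interactions were contrasts of the same fit. Means carry the SD of 2 libraries. For rescaling, a library's values were divided by the median, over tested genes, of their ratio to the gene's mean. Gradient genes were kept at a summed FPKM of at least 80 at both times. Other steps used Python 3.11.15, numpy 2.4.6, pandas 2.3.3 and matplotlib 3.10.9.

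The members and gene lists were chosen with earlier results of these data known. The rule for named genes took all 10 members, the small RNA genes inside them, the nearest start within 2000 bp and the 2 genes of most similar pattern per member. It took small RNAs by the names Snora, Snord and Scarna, and was widened to all annotated snoRNAs and scaRNAs after the tables were seen, as was the search for TATA after the promoters were read. In data simulated from each table with 200 genes changed, a log2 change of 1 and of 2 was recovered for 52% and 90% of genes for ESC RNA at 4 h, 85% and 95% for iMEF RNA at 4 h, 53% and 92% for chrRNP, 22% and 74% for RNPmesh at 4 h, and 91% and 98% for RAD0 at 4 h. The alternatives tried were rescaled libraries, a pseudocount of 0.1, no filter on low values, each library left out and the replicate number as a block, and for gradient and peaks other minimums, scalings, fractions and overlaps. Samples of other assays in the series were not analysed here.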

Additional observations from a re-analysis of the deposited data

Results flagged for a closer look

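By interaction tests, effects of IAA differed between groups for 4 members as deposited. In the fractions these were 1 member for chrRNP minus cyto, against 0.135% of all genes, and 2 for np minus cyto, against 1.00%, and none of these calls held under every omission of a library. The change of Snhg4 at 4 h was smaller in chrRNP than in cyto (difference -1.84) and smaller in np than in cyto (-1.58), on the log2 scale. The change of Snhg12 at 4 h in np minus that in cyto was -1.08, a call lost with any 1 of 8 libraries left out, with a pseudocount of 0.1 and after rescaling. The Snhg4 call for np held in 1 of 8 such omissions. At 20 h the change in RAD1 cells minus that in RAD0 cells was -1.34 for Snhg8, -0.81 for Snhg4 and -0.71 for Snhg3. These 3 of 10 members stand near the 25.6% of all genes called in that test, and they were called whichever library was left out.

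For Snhg3 and Snhg8, every 20 h library was lower than every 0 h library in ESC total RNA and higher than every 0 h library in iMEF total RNA, with differences of the log2 changes of -1.70 and -1.67. In ESCs at 20 h the all-gene median was -0.76, and after rescaling the opposite direction was gone, with Snhg3 at 0.62 (adjusted p = 0.000908) and Snhg8 at -0.02. The Snhg8 call in iMEFs was lost in 3 of 4 fits that left out a library. These differences were not tested, since the ESC and iMEF tables were normalized separately.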

How the results depend on the processing

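With the settings tried, 1868 values of single members stayed on the same side of the threshold, 123 lost and 21 gained a call, and 12 reversed. A reversal was counted only where either fit gave a call, so the 1868 may include uncalled changes of sign. Without the filter on low values 1 member was called in iMEFs at 4 h and 3 at 20 h. With a pseudocount of 0.1, 0 members were called in the np minus cyto interaction, and with rescaled libraries 1. Of all 14069 genes tested, 86 were higher and 11 lower in that interaction with rescaled libraries. Rescaling left 3 calls for untreated chrRNP against np. It turned Snhg3 in ESCs at 20 h to 0.62. It turned Snhg1 (0.64), Snhg6 (0.53), Snhg8 (0.80) and Gas5 (0.59) in chrRNP against cyto, and Snhg3 (0.011), Snhg4 (0.66), Snhg5 (0.26), Snhg6 (0.22), Snhg8 (0.15) and Snhg12 (0.34) in chrRNP against np. With 1 library left out, calls numbered 2 to 7 in ESCs at 4 h, 2 to 3 in iMEFs at 4 h, 3 to 6 in iMEFs at 20 h, 3 to 7 in chrRNP, 3 to 4 in cyto, 0 to 1 in both fraction interactions, 1 to 6 in RNPmesh at 4 h and 4 to 7 for RAD1 against RAD0. Snhg9 in ESCs at 4 h ranged from -2.58 to 2.41. The cause was not tested, but fewer libraries remained in these fits. With the replicate block, members' calls came to 125 against 127 without it over 24 comparisons, 5 against 6 in ESCs at 4 h (without Snhg1) and 4 against 3 in iMEFs at 4 h. With it Snhg5 passed in iMEFs at both times (adjusted p = 0.0384 and 0.0380), and Gas5 in iMEFs at 20 h, Snhg8 in RAD0 and Snhg1 in RAD1 cells at 4 h did not. Deviations of same-numbered libraries correlated at -0.145 to 0.145 and no label ties the numbers, so they were not taken as pairs. FPKM tables give no depth, which limits what can be said of low members such as Snhg9.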

Other observations

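The nearest companions of the members, by Pearson r of group means over 27 groups among 690 genes, are given as a description. Groups of a table share libraries' scale, and r carries no test. Snhg3 was closest to Snhg4 (0.95) and Gt(ROSA)26Sor, another noncoding RNA locus (0.89). Snhg20 was closest to Gt(ROSA)26Sor (0.92) and Snhg3 (0.88). Snhg12 was closest to Taf1d, a snoRNA-carrying coding gene (0.95), and Snhg5 to Snhg12 (0.93) and Eif4a2, likewise a snoRNA host (0.91). Gas5 was closest to Zfas1, a noncoding snoRNA host (0.94), and Snhg1 to 2410006H16Rik (0.94) and Zfas1 (0.90). Snhg6 was closest to Rabggtb, a coding snoRNA host (0.93). Between members r was lowest for Snhg5 with Snhg9 (-0.28) and Snhg20 (-0.25).

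Proteins of the snoRNP core, such as fibrillarin and dyskerin, and snoRNP assembly factors had 2 of 8 and 4 of 10 genes lower in ESC total RNA at 4 h, and 8 of 8 and 10 of 10 lower at 20 h, against 21.2% and 67.8% of all genes. In RNPmesh 2 of 8 and 2 of 10 were lower at 4 h, and 5 of 8 and 4 of 10 at 12 h, where 19.1% and 31.6% of all genes were lower at these times. Of genes of nonsense-mediated decay, 3 of 15 were lower in ESCs at 4 h and 15 of 15 at 20 h, where 67.8% of all genes were lower. After rescaling, 4 of these 15 were higher and 4 lower at 20 h, against 3423 higher and 3466 lower of all 12461 genes tested. Translation factors with oligopyrimidine tracts had 1 of 14 lower in ESCs at 4 h and 14 of 14 at 20 h, and 9 of 14 at 20 h after rescaling.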
